A study of Sus scrofa with 6 samples.

Results

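The microRNAs (miRNAs) miR-192, miR-194 and miR-215 come from 2 paralogous hairpin pairs, and their products were described here in pig immature Sertoli cells with and without a vitamin C derivative. Members were taken by name, as every product of the miR-192, miR-215, miR-194a and miR-194b hairpins. These were 6 of the 1645 entries of the table, which holds 358 known pig miRNAs and 1287 predicted ones. The set had been picked from its change between the treated and the control libraries, so that change is given below as a description, with no test. The testes were those of pig fetuses of 80 to 90 days, and their immature Sertoli cells were grown in Minimum Essential Medium with 10% fetal bovine serum. Seeded cells had 6 h of culture before the agent was added. The 3 control libraries were from untreated cells, and the 3 AA2P libraries from cells given L-ascorbic acid 2-phosphate, a stable vitamin C derivative, at 250 µM. The length of the treatment, the breed and the number of animals or cultures behind a group were not given, so the spread between libraries may be technical.

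Immature Sertoli cells are the dividing somatic cells of the seminiferous cord that later support germ cells. A miRNA is cut from a hairpin transcript, and one arm of the hairpin usually outlasts the other and guides the silencing complex to target mRNAs through its seed. miR-192 and miR-215 share a seed, are abundant in gut, liver and kidney epithelium, and are known as p53-induced repressors of cell cycle genes. miR-194 is the cluster partner of both, and hepatocyte nuclear factors activate these clusters in epithelia. In RefSeq's annotation of assembly Sscrofa11.1 the MIR194A gene neighbours MIR192, between ATG2A and EHD1. MIR215 neighbours MIR194B, and both lie within the span of IARS2, a mitochondrial tRNA synthetase gene. Strand was not compared, so the naming of IARS2 below gives a position and not a host transcript.

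Levels are in TPM, here reads scaled to a common total with no length term seen, so that entries can be set beside each other. The step between low values put the depth at 25.8 to 36.0 Mreads (counted reads, M for mega) per library. AA2P replicate 2 stood apart: its reads differed from those of the other AA2P libraries by a chi-square per degree of freedom of 579 and 621, where pairs within groups otherwise gave 98.8 to 192.4. It also listed 900 entries above 0, against 731 to 822 in the other libraries. Member values that rest on it are given with and without it. The labels name Sertoli cells, and no miRNA that defines them was used as a check here. Of the marker lists for other cells, the summed level was 167.61 to 306.97 TPM for muscle and myoid cells, 89.25 to 122.03 TPM for blood and endothelium, and 169.01 to 283.16 TPM for germ cells, nearly all of it miR-34c.

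miR-192, the main product of the pair near ATG2A, was the most abundant member. It stood at 1014.97, 945.92 and 906.02 TPM in control replicates 1 to 3 and at 2478.18, 2338.05 and 2028.17 TPM in AA2P replicates 1 to 3. The lowest AA2P library held 2.00 times the level of the highest control library. The mean went from 956 ± 55.1 to 2281 ± 230 TPM (SD, n = 3 per group), a ratio of 2.39. On the scale of log2(TPM + 1), used for all log2 fold changes below, the change was 1.25 with a standard error (SE) of 0.0969. Within a library miR-192 ranked 59th to 63rd among all entries in controls and 40th to 45th with AA2P, and ranks do not depend on the scaling.

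miR-215, its same-seed counterpart from within IARS2, was far scarcer. It stood at 19.47, 17.71 and 17.64 TPM in the control libraries and at 45.29, 50.37 and 40.39 TPM in the AA2P libraries. The groups did not overlap, and AA2P replicate 2 was the highest. The mean went from 18.3 ± 1.04 to 45.4 ± 4.99 TPM (SD, n = 3), a ratio of 2.48 and a log2 fold change of 1.26 (SE 0.112). Without AA2P replicate 2 the ratio was 2.34.

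miR-194a-5p, the main arm of the hairpin beside miR-192, was the member next in abundance. Its levels were 324.68, 240.28 and 307.5 TPM in controls and 740.47, 604.59 and 581.87 TPM with AA2P. Control replicate 2 was the lowest of all and AA2P replicate 1 the highest, with no overlap of the groups. The mean went from 291 ± 44.6 to 642 ± 85.8 TPM (SD, n = 3), a ratio of 2.21 and a log2 fold change of 1.14 (SE 0.151).

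miR-194a-3p, the passenger arm of that hairpin, stood at 5.92, 3.78 and 4.35 TPM in controls and at 16.37, 13.87 and 14.68 TPM with AA2P. These values rest on 122 to 153 reads in controls and 440 to 499 with AA2P. Every AA2P library was at least 2.34 times as high as the highest control. The mean went from 4.68 ± 1.11 to 14.97 ± 1.28 TPM (SD, n = 3), a ratio of 3.20, the highest ratio among the 5 members with a tested level. Its log2 fold change was 1.51 (SE 0.171).

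The miR-194b hairpin within IARS2 gave few reads. miR-194b-5p stood at 3.14, 2.26 and 3.17 TPM in controls, on 73 to 96 reads, and at 6.03, 13.62 and 4.49 TPM with AA2P, on 146 to 490 reads. The groups did not overlap, but AA2P replicate 2 stood well above both other AA2P libraries. The mean went from 2.86 ± 0.517 to 8.05 ± 4.89 TPM (SD, n = 3), a ratio of 2.82 that became 1.84 without AA2P replicate 2. The log2 fold change was 1.11 (SE 0.376), and 0.70 without that library. miR-194b-3p, the other arm, was at 0 in 5 libraries and at 0.03 TPM, 1 read, in AA2P replicate 2. A count of 0 allows up to 3 reads, which is 0.0924 to 0.116 TPM across the 5 libraries at 0, so no difference could be seen at this depth. Such floors cover counting error only.

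**Figure D1:**
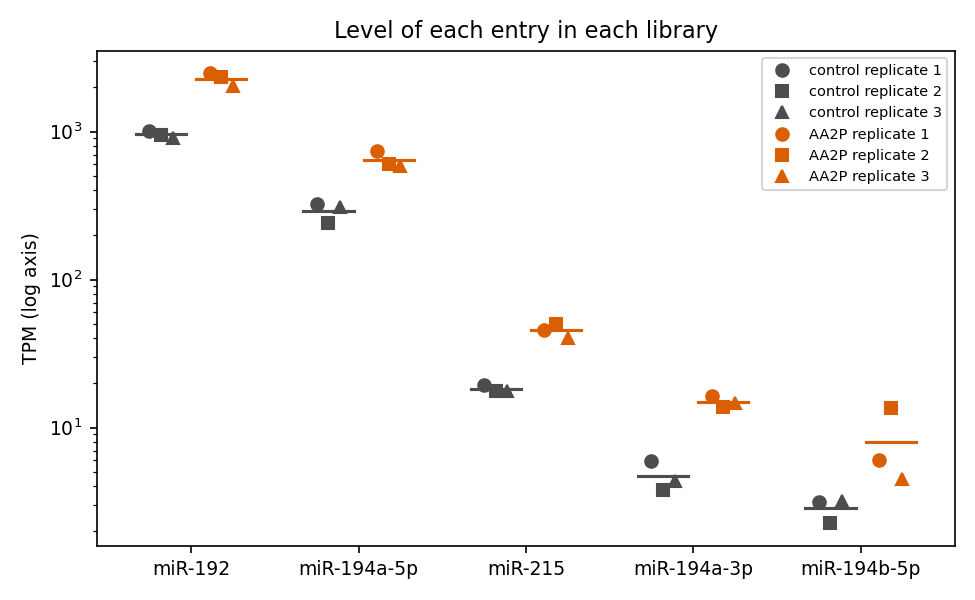
TPM (log axis) of the 5 members with a tested level in each of the 6 libraries, with lines at the group means and symbols for the replicates. All 3 AA2P libraries lie above all 3 control libraries for each, and AA2P replicate 2 (square) stands apart for miR-194b-5p at 13.62 TPM.

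In both groups the order of the mean levels was miR-192, miR-194a-5p, miR-215, miR-194a-3p, miR-194b-5p and miR-194b-3p. Neighbours in that order did not overlap within a group. The closest were miR-194a-3p and miR-194b-5p in AA2P replicate 2, at 13.87 and 13.62 TPM on 499 and 490 reads, which lie within counting error. The 6 members made up 0.127% ± 0.00843 of a control library and 0.299% ± 0.0309 of an AA2P library (SD, n = 3). miR-192 alone made up 73.1 to 78.2% of that sum, and miR-194a-5p 19.9 to 24.8%.

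Against the table as a whole, the median log2 fold change of the 5 members that passed the filter of at least 1 TPM in at least 3 libraries was 1.25. The median of all 433 entries that passed was 0.25. Relative to that median the members stood 0.86 (miR-194b-5p) to 1.26 (miR-194a-3p) higher, and by log2 fold change they took places 10 to 29 of 433. All 5 had ratios of at least 2 in mean TPM, as had 11.8% of tested entries. Groups did not overlap, with AA2P higher, for 5 of 5 members and for 40.4% of tested entries, and with median-of-ratios scaling, for 5 of 5 members and 18.2%. Since the members were picked on this contrast, nothing is read from these counts.

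**Figure D2:**
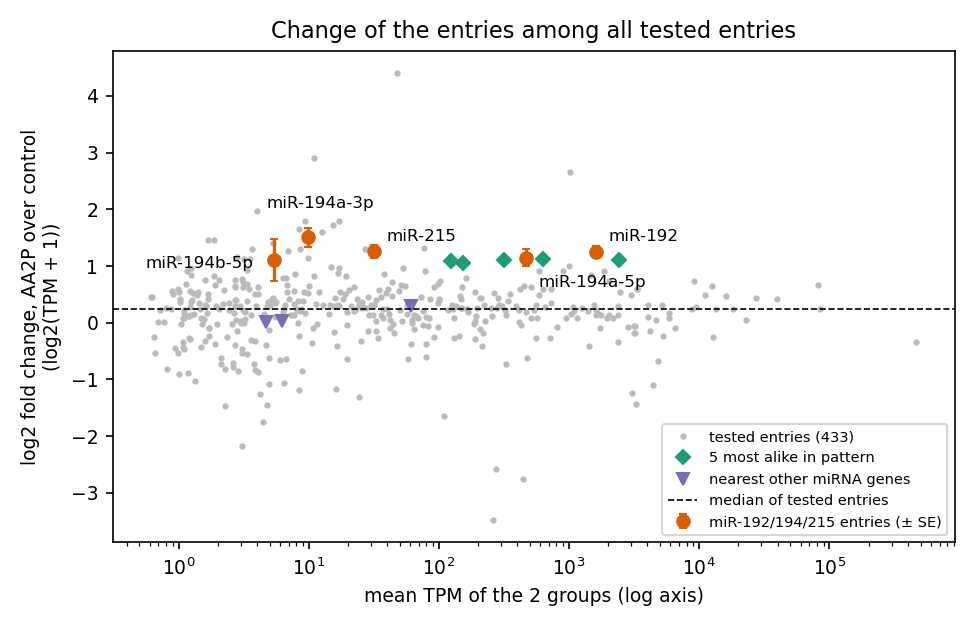
Log2 fold change (AA2P over control, log2(TPM + 1)) against the mean TPM of the 2 groups (log axis) for the 433 tested entries, with SE bars for the members. The 5 members lie between 1.11 and 1.51 over a wide range of levels, above the dashed median of 0.25, while the entries of the nearest other miRNA genes lie close to or below it.

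The size of the change depended on the scaling. Median-of-ratios scaling shifted the median of all tested entries by -0.26. It put the log2 fold change at 0.96 for miR-192, 0.98 for miR-215, 0.85 for miR-194a-5p, 1.25 for miR-194a-3p and 0.87 for miR-194b-5p. Under each of the 6 other scalings run, all 5 members were higher with AA2P, and miR-194a-3p had the highest log2 fold change of the 5. The lowest single value was 0.77, for miR-194a-5p under quantile normalization.

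**Figure D3:**
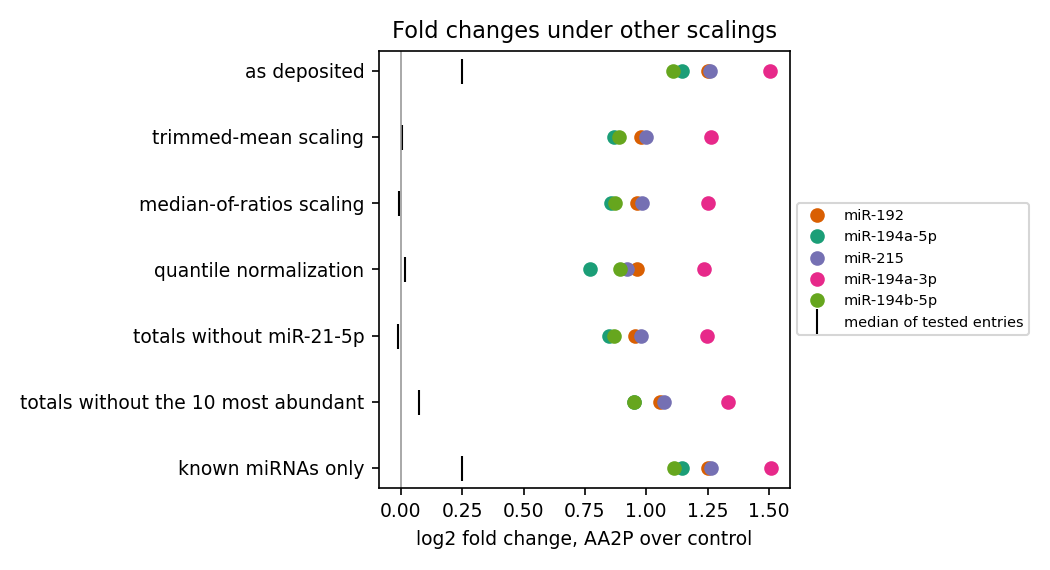
Log2 fold change (AA2P over control) of the 5 members under the deposited scaling and 6 others, with a bar for the median of the tested entries. The points move together with the median, to the left in 5 of the 6 other scalings, and the lowest lies at 0.77. With known miRNAs only, points and median stay within 0.01 of the deposited scaling.

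Ratios between members within a library cancel the scaling. Like-seeded counterparts kept a near-constant ratio in controls although their genes lie apart. The TPM ratio of miR-192 to miR-215 was 52.1, 53.4 and 51.4 in control replicates 1 to 3 and 54.7, 46.4 and 50.2 in AA2P replicates 1 to 3. Its mean was 52.3 ± 1.04 in controls and 50.5 ± 4.16 with AA2P (SD, n = 3), and the groups overlapped. The coefficient of variation (CV) in controls, 1.98%, was no larger than the 4.36% that counting reads gives on its own. With AA2P it was 8.24% against 2.69%, with AA2P replicate 2 the lowest. Without that library the AA2P mean was 52.5 and the CV 6.07%.

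The ratio of miR-194a-5p to miR-194b-5p behaved alike in controls, at 103, 106 and 97.0, a CV of 4.66% where counting alone gives 11.1%. With AA2P it was 123, 44.4 and 130, a mean of 98.9 ± 47.4 (SD, n = 3) that became 126 without AA2P replicate 2. On the log2 scale, with a pseudocount of 1 added to each TPM, the difference from controls was 0.04, and 0.49 without that library. With all 6 libraries it was -0.20 with no pseudocount and 0.46 with a pseudocount of 5, so its sign depended on the pseudocount. AA2P replicate 2 was the library in which both products of the IARS2 pair took the highest share beside their counterparts. There miR-215 made up 2.11% of the reads of miR-192 and miR-215 together (95% Wilson interval 2.02 to 2.21%), against 1.79 to 1.95% in the other 5 libraries. That interval overlapped those of AA2P replicate 3 (1.85 to 2.06%), control replicate 1 (1.73 to 2.05%) and control replicate 3 (1.76 to 2.08%). miR-194b-5p made up 2.20% of the reads of both miR-194 5p arms (2.02 to 2.40%), against 0.766 to 1.02% elsewhere. The intervals cover counting error only. Whether reads that match near-identical entries were split, shared or given to one of them is not given in the sources used here, so the levels of miR-215 and miR-194b-5p are less certain than those of their abundant counterparts. The part of shared reads in these ratios was not tested.

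Partners from the same cluster varied more among controls. The ratio of miR-192 to miR-194a-5p was 3.13, 3.94 and 2.95 in the control libraries and 3.35, 3.87 and 3.49 in the AA2P libraries. Its CV in controls was 15.8%, where counting reads gives 1.24%, and replicate 2 was the highest library in each group. With AA2P the order was not the same. There its CV was 7.56%, against 8.24% for miR-192 to miR-215 and 47.9% for miR-194a-5p to miR-194b-5p. The group means of 3.34 ± 0.528 and 3.57 ± 0.269 (SD, n = 3) overlapped in range. The ratio of miR-215 to miR-194b-5p was 6.20, 7.84 and 5.56 in controls and 7.51, 3.70 and 8.996 with AA2P, with CVs of 17.9 and 40.6% against 11.8 and 7.57% from counting. Without AA2P replicate 2 the AA2P mean went from 6.73 to 8.25 and the CV to 12.7%. The log2 difference from controls, with a pseudocount of 1, went from 0.15 to 0.49. With all 6 libraries that difference was -0.04 with no pseudocount and 0.44 with a pseudocount of 5, so its sign and size depended on the pseudocount. Control replicate 2 was the lowest control library for all 3 measured miR-194 products, by 0.23 to 0.26 below the control mean on the log2 scale. For miR-192 and miR-215 it lay 0.01 and 0.04 below.

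The arms of the miR-194a hairpin did not change by the same factor. Dividing 5p by 3p TPM gave 54.8, 63.6 and 70.7 in controls and 45.2, 43.6 and 39.6 with AA2P. All AA2P libraries lay below all controls, with means of 63.0 ± 7.94 and 42.8 ± 2.88 (SD, n = 3). As a share of the reads of both arms, the 3p arm took 1.58% ± 0.200 in controls and 2.29% ± 0.154 with AA2P. The 95% Wilson intervals of single libraries ran from 1.18 to 2.10% in controls and from 1.97 to 2.69% with AA2P. Of the 60 hairpins with both arms tested, AA2P lay lower without overlap in 4 (6.67%) and higher in 10, and miR-194a had the largest fall of this ratio when no pseudocount was added. The median hairpin changed by 0.08 on the log2 scale, and miR-194a by -0.56. The ratio was singled out after its values were seen and belongs to the contrast that picked the members, so it has no test. With a pseudocount of 1 the difference was -0.36, the largest fall after that of miR-193a (-0.46), and 12 hairpins lay higher without overlap. With a pseudocount of 5, which is about the control level of the 3p arm, it was 0.08.

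**Figure D4:**
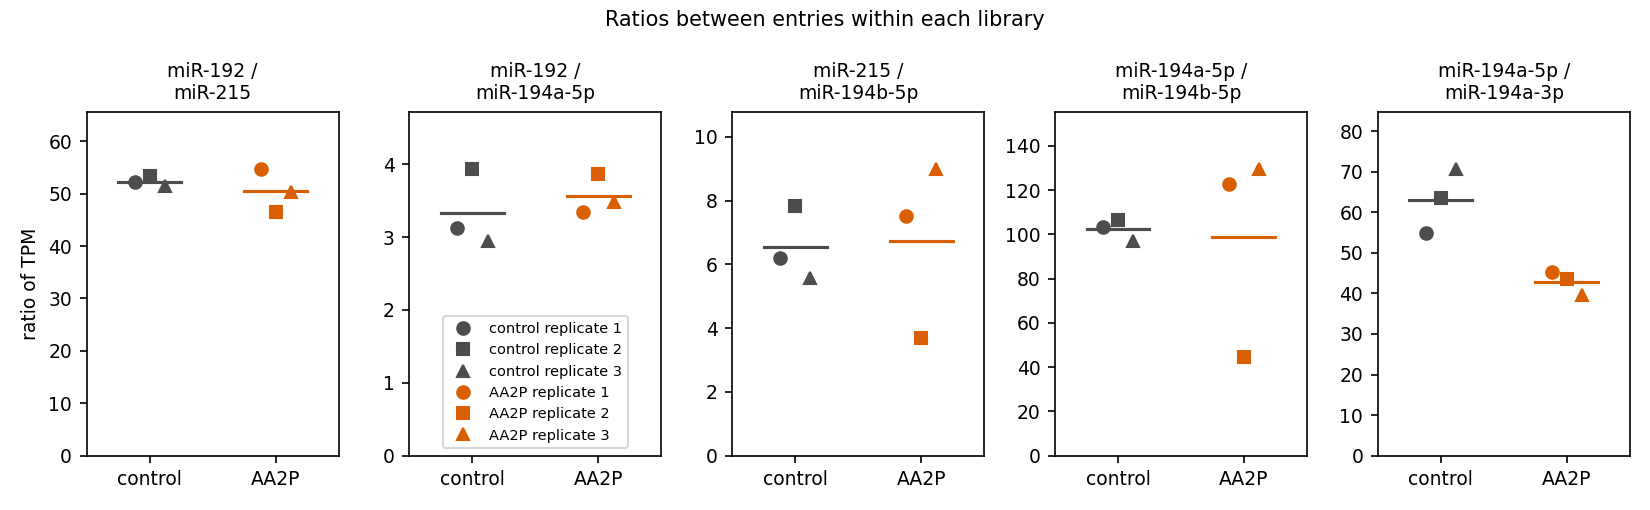
TPM ratios between members within each of the 6 libraries, in 5 panels whose axes start at 0, with lines at the group means. Control libraries lie close together for miR-192 to miR-215 and for miR-194a-5p to miR-194b-5p, AA2P replicate 2 (square) departs in the latter and in miR-215 to miR-194b-5p, and the 5p to 3p ratio of miR-194a is lower in all AA2P libraries.

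The nearest other annotated miRNA gene on the same chromosome was looked up for each pair, with no limit on distance. MIR664 is the closest to the IARS2 pair. miR-664-5p stood at 4.64 ± 0.246 and 4.76 ± 0.893 TPM and miR-664-3p at 6.26 ± 1.48 and 6.32 ± 0.513 TPM in controls and AA2P (SD, n = 3; limma, adjusted p = 0.929 and 0.922). MIR7142 is the closest to the pair near ATG2A, and miR-7142-3p stood at 54.4 ± 0.990 and 67.2 ± 5.43 TPM (limma, adjusted p = 0.0577). None of these 3 products was called, with log2 fold changes of 0.02 (SE 0.160), 0.03 (SE 0.177) and 0.30 (SE 0.0886).

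Outside the set, the known miRNAs most alike in pattern were miR-99a-5p, miR-32, miR-92b-3p, miR-181b and miR-429, in that order. Likeness was the root mean square distance over the 6 libraries between log2 profiles centred on the control mean, among 201 known miRNAs that averaged 10 TPM or more. The distances to the mean profile of miR-192, miR-215 and miR-194a-5p were 0.0920 to 0.123. miR-99a-5p went from 1529 ± 155 to 3283 ± 377 TPM and miR-429 from 98.8 ± 4.62 to 207 ± 23.6 TPM (SD, n = 3).

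Of 10 listed further miRNAs that p53 induces or helps to process, 8 matched tested entries. By limma's test on log2(TPM + 1), with Benjamini-Hochberg adjustment over all entries and calls under 0.05, 2 of these were called higher and 0 lower, and the median log2 fold change was 0.34, beside 0.25 for all entries. These were miR-107 (505 ± 61.03 to 760.2 ± 54.3 TPM; limma, adjusted p = 0.0136) and miR-34c (178 ± 8.01 to 242 ± 36.3 TPM; limma, adjusted p = 0.0464). The most abundant, miR-103, stood at 5531 ± 588 and 6179 ± 398 TPM, miR-16 at 634 ± 60.6 and 814 ± 125 TPM, and miR-34a, the best known p53 target of the list, at 295 ± 33.8 and 384 ± 32.2 TPM, none of them called. The miR-107 call was lost under quantile normalization and with totals without miR-21-5p. Of 18 alternatives, 13 ended the miR-34c call, 5 of them other scalings and 5 the loss of a library (any control, AA2P replicate 1 or AA2P replicate 3). The background was 19.9% of tested entries called higher and 4.85% called lower. This list and those below were chosen with earlier results of these data known, so nothing is read from their counts of calls.

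Of 9 listed epithelial miRNAs, most of which repress ZEB1 and ZEB2 as miR-192 and miR-215 repress ZEB2, 5 were in the table and 4 were tested. Of these 4, 3 were called higher and 0 lower, beside 19.9% and 4.85% of all tested entries. Their median log2 fold change was 0.64, beside 0.25 for all entries. This list too was chosen with earlier results of these data known, so nothing is read from its share of calls. miR-200b went from 1496 ± 41.9 to 2519 ± 297 TPM and miR-429, its cluster partner, rose as given above (limma, adjusted p = 0.00443 and 0.00222). Both calls held in all 18 alternatives. miR-375 went from 7.28 ± 0.745 to 10.99 ± 0.412 TPM (limma, adjusted p = 0.0197), a call lost in 11 of 17 alternatives, 5 of them other scalings and 4 the omission of control replicate 2 or 3 or AA2P replicate 1 or 3. miR-141 stood at 46.1 ± 1.36 and 45.0 ± 22.1 TPM, with AA2P replicate 2 at 20.54 TPM and an AA2P mean of 57.2 TPM without it, and was not called.

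miR-122, the dominant liver miRNA, shares with miR-192 and miR-194 an abundance in liver. miR-122-5p was at 3.52, 4.0 and 6.43 TPM in controls and at 9.90, 9.62 and 6.37 TPM with AA2P, and the groups overlapped (limma, adjusted p = 0.0746). The 2 liver markers together summed to 3.71 to 6.53 TPM in controls and 6.68 to 10.12 TPM with AA2P, with 0 of 1 tested called. These sums were kept from overlapping, at 6.53 and 6.68 TPM, only by miR-885-5p, which stood at 0.10 to 0.39 TPM, below the filter. Among tested entries, groups did not overlap, with AA2P higher, for 40.4%, and for 18.2% with median-of-ratios scaling. The part of liver-type cells in the change of the members was not tested. The members themselves summed to 1210 to 1368 TPM in controls and 2670 to 3286 TPM with AA2P. In bulk RNA, more cells of a kind and more of a miRNA per cell cannot be told apart. Of the muscle and myoid list, 0 of 4 tested were called, with miR-1 at 153 ± 24.1 and 225 ± 41.4 TPM and miR-143-3p at 34.6 ± 10.7 and 30.8 ± 8.22 TPM. Of the blood and endothelial list, 1 of 3 was called, miR-142-3p, which went from 0.507 ± 0.0802 to 1.98 ± 0.627 TPM (limma, adjusted p = 0.0293). It stood at 0.43 to 0.59 TPM in controls, below 1 TPM, and so met the filter only through the AA2P libraries. The filter thus favoured this call, and nothing is read from it. The other entries of this list below the filter differed. miR-142-5p stood at 0.34 to 0.56 TPM in controls and at 0.72 to 2.08 TPM with AA2P. miR-223 was at 5.4 TPM in AA2P replicate 1 and at 0 to 0.06 TPM elsewhere. For miR-451 the groups overlapped, at 0.31 to 1.11 TPM, and miR-144 was at 0 to 0.06 TPM. The part of blood cells in the change of the members was not tested. The endothelial miR-126-3p had 101 ± 6.502 TPM in controls and 96.4 ± 12.2 with AA2P, and miR-486, a miRNA of red blood cells, 3.76 ± 0.549 and 2.34 ± 0.710. Neither was called as deposited, and both were called lower after quantile normalization and with trimmed-mean or median-of-ratios scaling. For miR-142-3p, 9 of 17 alternatives lost the call, 5 of them by omitting a library other than AA2P replicate 2. Of the germ cell list, the 1 tested entry was miR-34c, called higher as above, while miR-371-5p and miR-383 were at 0 to 0.22 TPM.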

How the data were processed

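The authors deposited 1 table of TPM for 6 small RNA libraries, rounded to 2 decimals. The submitters' processing notes name Bowtie, with no version or role. Build, miRBase release and the handling of shared reads: not given in the sources used here. Low values step by 1 amount per library, which gave the depths; 99.7 to 100% of the values above 0 lay within 0.0051 TPM of whole reads, where rounding alone gives 26.3 to 36.7%. Values were tested as TPM, and no count test was run. No library repeated another of its own group (chi-square per degree of freedom 98.8 to 621), and pairs across groups were not compared in this way.

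The 433 entries (264 known, 169 predicted) that reached 1 TPM in 3 or more of the 6 libraries were fitted on log2(TPM + 1) with limma 3.58.1 in R 4.3.3, with a mean-variance trend, two-sided, adjusted over all 433. The fit was tested on simulated data. Samples were grouped by their labels. Members and lists were chosen with earlier results of these data known. Named were all members, the 5 known miRNAs most alike, and in each list the calls and up to 4 of the most abundant; miR-664, miR-7142, miR-371-5p and miR-383 were added after their values were seen. The cluster partners were first written as miR-192 with miR-194b and miR-215 with miR-194a, and were exchanged once RefSeq's order was read. Names with no arm were read as the main arm. Alternatives changed the pseudocount, filter, scaling, trend, block and libraries.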

Additional observations from a re-analysis of the deposited data

How the results depend on the processing

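The 5 tested members were higher with AA2P in all 14 alternatives run on their fold change. Their median of 1.25 became 0.98 with trimmed-mean scaling, 0.96 with median-of-ratios scaling, 0.92 with quantile normalization and 0.96 with totals without miR-21-5p, and 1.18 to 1.34 with 1 library left out. The 107 calls over all entries (86 higher, 21 lower) became 57 (48 and 9) with no filter beyond 1 library above 0, where 1645 entries were tested. The split of higher and lower calls was 48 and 50 with trimmed-mean scaling, 48 and 51 with median-of-ratios scaling, 44 and 40 with quantile normalization, 39 and 43 with totals without miR-21-5p, and 55 and 36 with totals without the 10 most abundant. With 1 library left out there were 62 to 98 calls, 54 to 78 higher and 8 to 20 lower, the lowest each without control replicate 3; without control replicate 2 there were 75, 13 of them lower. The deviations of same-numbered libraries from their group means correlated at 0.29, 0.06 and 0.18. The labels do not say what a number stands for, and these correlations cannot decide whether same-numbered libraries share an origin. With the replicate block there were 63 calls (52 higher and 11 lower), and 3 of the list members were called. The 6 calls among list members, all higher, became 4 higher and 2 lower with trimmed-mean and with median-of-ratios scaling and 2 and 2 with quantile normalization. Their count became 3 with no filter, 2 with totals without miR-21-5p, 11 with known miRNAs only (10 higher, 1 lower), and 3 to 6 with 1 library left out, with 3 without control replicate 2, control replicate 3 or AA2P replicate 1. With a pseudocount of 5, the difference of the log2 ratio turned from -0.01 to 0.14 for miR-192 to miR-215 and from -0.36 to 0.085 for the arms of miR-194a, since the pseudocount weighs on the scarcer entry. With no pseudocount it went from 0.04 to -0.20 for miR-194a-5p to miR-194b-5p and from 0.15 to -0.04 for miR-215 to miR-194b-5p. The cause of the other differences was not tested.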

Other observations

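Below the 5 miRNAs most alike in pattern to miR-192, miR-215 and miR-194a-5p came a group from another cluster. Among places 6 to 12 of the 201 known miRNAs, 5 were products of the miR-450 and miR-542 hairpins, which lie in 1 polycistron with miR-424 and miR-503. miR-450c-5p went from 659 ± 70.3 to 1327 ± 186 TPM, miR-450a from 406 ± 56.0 to 761 ± 94.6 TPM and miR-542-3p from 622 ± 97.8 to 1174 ± 173 TPM (SD, n = 3). Their distances to the mean profile were 0.169, 0.240 and 0.302 on the log2 scale, against 0.0920 for miR-99a-5p, the most alike. These entries were singled out after the order was seen. Other products of that polycistron were not among the first 12 places. The log2 fold changes were 0.62 for miR-424-5p, 0.73 for miR-424-3p and 0.52 for miR-503. For miR-450b-3p it was 0.30 and for miR-542-5p 0.75, and both averaged under 10 TPM and so were not compared.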
